A study of Homo sapiens with 21 samples.

Results

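The receptor tyrosine kinase RET, its co-receptors GFRA1, GFRA2, GFRA3 and GFRA4 and the ligands GDNF, NRTN and ARTN were examined as 8 genes through the accessible chromatin sites assigned to them. A site belonged to a gene when the authors' annotation of the consensus sites named that gene as the nearest one, which gave 223 of 367900 sites. GFRA1 had 101 of these, GDNF 58, GFRA2 38, RET 12, GFRA4 6, GFRA3 4, NRTN 3 and ARTN 1. Reads were high enough for a test at 215 of the 223 sites, and the 8 left out (4 of GFRA1, 2 of GFRA2, 1 of GFRA4 and 1 of GDNF) had Control means of 0.175 to 0.408 CPM (read counts scaled to library size). Assignment was by distance alone: of the GFRA1 sites 33 lay in ATRNL1 and 45 in GFRA1 itself, and of the GDNF sites 32 lay in WDR70, 8 in GDNF and 2 in GDNF-AS1. By annotation class 141 of the 223 were intronic, 64 intergenic, 13 exonic, 4 at a promoter and 1 at a transcript end.

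ATAC-seq, in which the Tn5 transposase cuts open chromatin and the cut fragments are sequenced, was run on SK-N-BE(2), a human cell line established from a neuroblastoma. All cells had been transduced with lentivirus and were taken 72 h later, in 7 groups of 3 libraries. Control cells carried a non-silencing shRNA, the groups shARID1A.2 and shARID1A.4 carried a hairpin against ARID1A, and shARID1B.2 and shARID1B.3 one against ARID1B. Both genes were silenced at once in shARID1A/B.2.3 and shARID1A/B.4.2, whose names join the numbers of an ARID1A and an ARID1B hairpin. ARID1A and ARID1B are alternative subunits of the BAF chromatin remodelling complex, and the study asked which sites lose accessibility when both are depleted. ATAC-seq does not measure the loss of the silenced proteins, so the labels were not checked against their targets here.

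RET is switched on when a ligand of the GDNF family binds a GFRA co-receptor held on the cell surface by a lipid anchor, and the pair brings RET molecules together. GFRA1 is the preferred partner of GDNF, GFRA2 of neurturin (NRTN), GFRA3 of artemin (ARTN) and GFRA4 of persephin. The pathway guides the sympathetic nervous system, from which neuroblastoma arises, and the enteric nervous system.

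Libraries held 16140029 to 44472230 reads in consensus sites, of which 8445 to 23648 were in the 223 sites. The share of reads in promoter sites was 19.98% to 20.58% in Control, 23.37% to 24.02% in shARID1A/B.2.3, 24.84% to 25.06% in shARID1A/B.4.2 and 20.92% to 24.14% in the single groups, and its part in the changes below was not tested. All 9 adrenergic neuroblastoma markers and all 7 mesenchymal markers had a site. Within 1 kb of the start, 7 adrenergic markers had one, with Control levels of 2.57 to 15.9 CPM per kb. There 4 mesenchymal markers had one, at 4.46 to 20.0 CPM per kb, with a higher median than the adrenergic ones. Of 4 Schwann cell markers, SOX10 had no site and S100B alone had one within 1 kb, at 2.41 CPM per kb, and of 3 blood markers HBB alone had one, at 1.46 CPM per kb. In bulk cells a site open in fewer cells and a site less open in each cell cannot be told apart.

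Sites are named by gene and by the bases between the site's centre and the start in the authors' annotation, with a minus sign for upstream. RefSeq places its upstream RET start at chr10:43077069, inside the site RET -16135, and the start used by the authors lies further downstream. Another RefSeq start of RET, at chr10:43104765, lay in no site. The forward strand of GRCh38 is printed for the RET promoter, whose site was not called on the mean of the combinations, and for the central 300 bases of each closed RET site and of the closed GFRA1 and GDNF sites with the smallest p. Sequences of GFRA2, whose losses were as clear, are not shown. Capitals mark matches to the motifs named afterwards, on either strand. The first line, from the RefSeq promoter table of GRCh38.p14, covers the 250 bases before the upstream RefSeq start, and the others were read from the GRCh38 genome.
RET promoter, chr10:43076819-43077068: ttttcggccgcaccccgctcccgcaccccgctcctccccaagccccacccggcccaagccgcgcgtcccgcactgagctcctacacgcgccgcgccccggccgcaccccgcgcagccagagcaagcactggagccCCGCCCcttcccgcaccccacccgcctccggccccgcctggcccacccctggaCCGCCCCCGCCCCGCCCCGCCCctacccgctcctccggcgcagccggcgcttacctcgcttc
RET -36563, chr10:43056772-43057071: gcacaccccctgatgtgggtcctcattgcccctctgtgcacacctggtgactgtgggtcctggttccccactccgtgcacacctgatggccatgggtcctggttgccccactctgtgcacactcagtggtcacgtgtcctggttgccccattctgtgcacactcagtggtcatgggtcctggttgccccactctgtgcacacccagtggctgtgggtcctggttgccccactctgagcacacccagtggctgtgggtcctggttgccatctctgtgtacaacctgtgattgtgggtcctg
RET -33046, chr10:43060289-43060588: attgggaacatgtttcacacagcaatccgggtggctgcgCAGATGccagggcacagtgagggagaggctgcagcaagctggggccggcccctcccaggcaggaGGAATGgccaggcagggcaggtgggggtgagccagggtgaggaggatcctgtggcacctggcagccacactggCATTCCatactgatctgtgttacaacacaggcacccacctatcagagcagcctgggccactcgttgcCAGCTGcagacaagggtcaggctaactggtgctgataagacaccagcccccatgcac
RET -24258, chr10:43069077-43069376: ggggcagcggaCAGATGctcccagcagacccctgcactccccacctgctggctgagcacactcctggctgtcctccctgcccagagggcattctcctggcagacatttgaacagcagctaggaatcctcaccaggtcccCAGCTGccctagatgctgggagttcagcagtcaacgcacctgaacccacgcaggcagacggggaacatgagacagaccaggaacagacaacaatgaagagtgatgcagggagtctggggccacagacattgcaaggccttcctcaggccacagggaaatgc
RET +6691, chr10:43100026-43100325: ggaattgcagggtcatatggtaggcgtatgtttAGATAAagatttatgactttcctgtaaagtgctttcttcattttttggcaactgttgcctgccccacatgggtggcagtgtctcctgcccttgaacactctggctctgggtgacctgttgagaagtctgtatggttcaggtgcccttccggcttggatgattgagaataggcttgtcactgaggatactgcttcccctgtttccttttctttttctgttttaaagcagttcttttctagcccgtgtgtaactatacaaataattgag
GFRA1 +400230, chr10:115872274-115872573: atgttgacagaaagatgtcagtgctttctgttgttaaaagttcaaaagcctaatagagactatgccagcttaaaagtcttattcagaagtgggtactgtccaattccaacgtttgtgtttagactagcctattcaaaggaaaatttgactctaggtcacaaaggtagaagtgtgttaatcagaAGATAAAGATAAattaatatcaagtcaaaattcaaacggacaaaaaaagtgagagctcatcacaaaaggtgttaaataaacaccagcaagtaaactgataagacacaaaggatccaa
GDNF +114733, chr5:37720609-37720908: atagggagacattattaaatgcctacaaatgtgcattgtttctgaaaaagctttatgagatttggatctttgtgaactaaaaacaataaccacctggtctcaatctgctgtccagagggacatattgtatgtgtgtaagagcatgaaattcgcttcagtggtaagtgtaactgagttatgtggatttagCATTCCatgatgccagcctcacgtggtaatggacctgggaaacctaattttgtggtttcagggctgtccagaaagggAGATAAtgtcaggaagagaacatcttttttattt

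Matches to 7 motifs were searched on both strands, with adjacent matches allowed to share a base. The AP-1 motif was spelled TGANTCA and the motif of GATA factors was spelled AGATAA. One E-box was spelled CAGCTG, while the other E-box was spelled CATCTG. The homeobox motif was spelled TAATTA, the TEAD motif was spelled GGAATG and the motif of SP and KLF factors was spelled GGGCGG. The RET promoter, at 79.6% G and C with 33 CpG, held 5 matches to SP/KLF, a motif found in 42.5% of 34943 RefSeq promoters of that length. RET -36563 held none of the 7 motifs, and its 300 bases matched themselves at 63.8% of positions after a shift of 40 bases, a level that 0.306% of 357024 sites reached at some shift of 20 to 100 bases. The best such match of a site had a median of 33.2%, and whether the repeated stretch affected read placement was not tested. RET -33046 held 2 TEAD matches and both E-boxes, RET -24258 both E-boxes, RET +6691 1 GATA match, GFRA1 +400230 2 GATA matches and GDNF +114733 1 TEAD and 1 GATA match. TEAD occurred in 16.8%, GATA in 17.0%, CAGCTG in 17.6% and CATCTG in 23.0% of the central 300 bases of all tested sites.

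Silencing of both genes lowered accessibility at part of the sites of RET, GFRA1, GFRA2 and GDNF. A GFRA3 site was lower on the mean of the combinations, but only shARID1A/B.2.3 (log2 change -0.73) and not shARID1A/B.4.2 (-0.08) showed that loss. With the mean of both combinations set against Control, 41 of the 215 sites were lower at a false discovery rate (FDR, the Benjamini-Hochberg adjusted p of edgeR's quasi-likelihood test over all tested sites) under 0.01. That was 19.1% of the sites of the 8 genes, beside 10.3% of all 357029 tested sites. Only 3 sites were higher, 1.4% beside 3.43% of all tested sites. The median log2 change was -0.13 for the 215 sites and 0.03 for all tested sites. Scaling on promoter sites instead, which moved the median of all sites to -0.202, left 60 of the 215 lower and 0 higher, beside 15.9% and 0.692% of all sites.

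Losses were counted by gene, and whether the genes differed in their shares was not tested. RET lost accessibility at 4 of 12 tested sites, GFRA1 at 18 of 97, GFRA2 at 11 of 36, GFRA3 at 1 of 4 and GDNF at 7 of 57. The GDNF share, 12.3%, was close to the 10.3% of all tested sites, and the shares of RET, GFRA1 and GFRA2 were higher. With untested sites counted too, 4 of the 45 sites inside GFRA1 closed, 8 of the 33 in ATRNL1 and 6 of the 23 between genes. For GFRA2 it was 4 of 22 inside the gene and 7 of 16 between genes, and for RET 1 of 8 and 3 of 4. No site of GFRA4, NRTN or ARTN passed the test downwards, in edgeR or in DESeq2. With only 5, 3 and 1 tested sites, the lack of calls in these genes says little. At an unadjusted p under 0.05, 2 of 5 GFRA4 sites were lower and none of NRTN or ARTN was. Gains were called at GDNF -2004, GDNF -4632 and NRTN +4383. Taken singly, these GDNF sites passed only in shARID1A/B.4.2 and the NRTN site only in shARID1A/B.2.3. The median log2 change of a gene's tested sites was -0.24 for GFRA1, -0.21 for GFRA2, -0.25 for GFRA4, 0.03 for RET, 0.05 for GDNF, 0.33 for NRTN, 0.41 for GFRA3 and 0.43 for ARTN. In CPM, all 6 libraries of the combinations lay below all 3 Control libraries at 39 of the 215 sites (18.1%, beside 10.8% of all tested sites) and above them at 6 (2.79%, beside 4.85%).

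**Figure D1:**
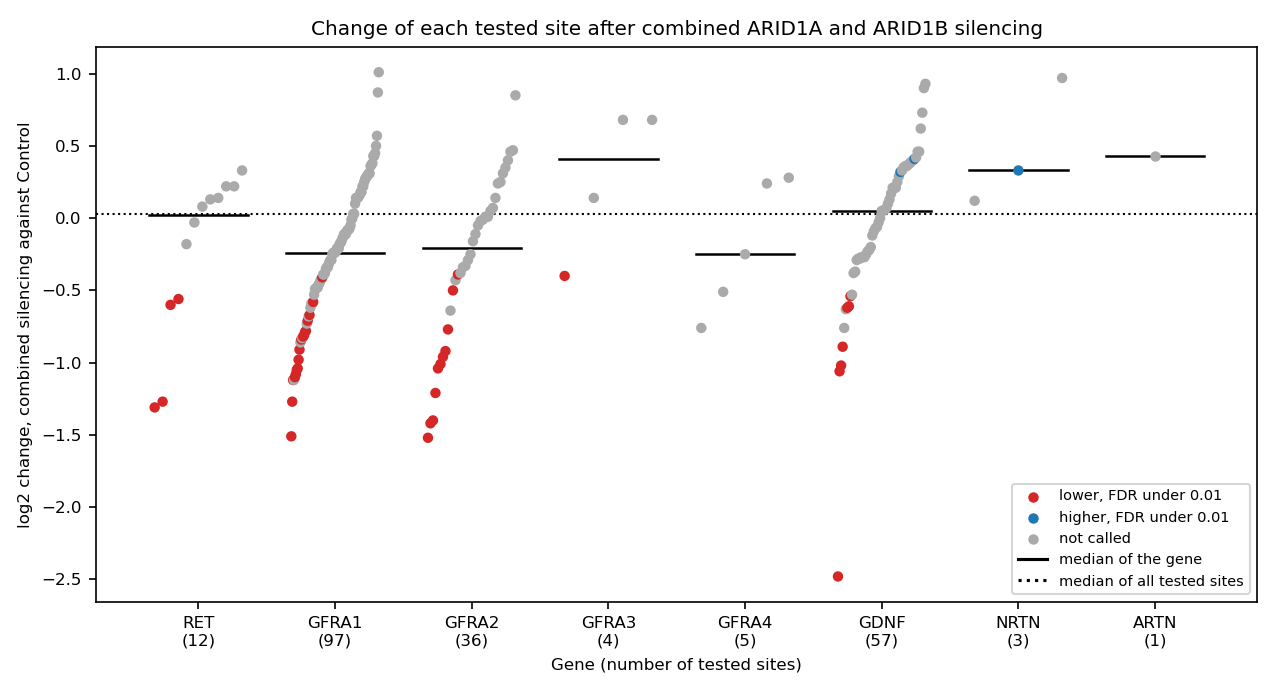
Log2 change (vertical axis, mean of both combinations against Control) of each of the 215 tested sites, grouped by nearest gene, with red for sites lower and blue for sites higher at FDR under 0.01, black bars for the gene medians and a dotted line for the median of all tested sites. The lowest point is GDNF +114733 at -2.48, and the blue points are those of GDNF -2004, GDNF -4632 and NRTN +4383.

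At the RET locus the losses sat upstream of the gene and in an intron, while the sites over its starts were not called on the mean of the combinations. RET -36563, an intergenic site at chr10:43055820-43058022, read 17.95, 15.12 and 16.72 CPM in the Control libraries. It read 6.34, 4.65 and 5.54 CPM in shARID1A/B.2.3 and 7.39, 8.1 and 9.09 CPM in shARID1A/B.4.2. Every library of the combinations was below every Control library, and the log2 change was -1.31 (SE 0.1, FDR 4.18e-21). Single silencing gave 7.61, 6.34 and 6.56 CPM with shARID1A.2, 9.16, 8.27 and 10.27 CPM with shARID1A.4, and 9.66, 8.6 and 8.23 CPM with shARID1B.3. These 3 groups also lay clear of Control, with log2 changes of -1.28, -0.85 and -0.9 that all passed the test. The group shARID1B.2, at 16.67, 14.67 and 14.49 CPM, overlapped Control, and its log2 change of -0.12 (SE 0.11, FDR 0.642) did not pass.

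RET +6691, at chr10:43099680-43100670 in intron 4 of 22, was the RET site that passed the test downwards in each of the 6 silenced groups. It read 5.29, 4.68 and 6.13 CPM in Control, 2.04, 1.7 and 1.85 CPM in shARID1A/B.2.3 and 2.73, 2.62 and 2.69 CPM in shARID1A/B.4.2. The combinations did not overlap Control, and the log2 change was -1.27 (SE 0.13, FDR 2.69e-14). Its single-group log2 changes were -0.75 with shARID1A.2, -1.05 with shARID1A.4, -0.57 with shARID1B.2 (FDR 0.00611) and -1.42 with shARID1B.3. The combined change was smaller in size than the sum of both single changes by 0.63 on the log2 scale (SE 0.17), which did not pass the test (FDR 0.0398).

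The other RET losses were shallower. RET -24258, intergenic at chr10:43067545-43070907, read 15.64, 13.4 and 15.47 CPM in Control, 9.32, 7.3 and 10.95 CPM in shARID1A/B.2.3 and 11.11, 11.64 and 10.76 CPM in shARID1A/B.4.2. No library of the combinations reached the lowest Control library, and the log2 change was -0.56 (SE 0.09, FDR 8.73e-07). RET -33046, intergenic at chr10:43060135-43060741, had a Control library inside the range of the combinations: Control read 3.51, 2.1 and 3.05 CPM, shARID1A/B.2.3 1.77, 1.46 and 1.58 CPM and shARID1A/B.4.2 2.33, 2.72 and 1.67 CPM. Taken singly, shARID1A/B.2.3 passed the test there (log2 change -0.84, FDR 0.000311) and shARID1A/B.4.2 did not (-0.35, FDR 0.232). The log2 change of their mean, -0.6 (SE 0.16, FDR 0.00356), passed the test, but did not with DESeq2 or with abundance-trended offsets, nor without Control library 1 or 3, shARID1A/B.2.3 library 2 or shARID1A/B.4.2 library 3 (log2 changes of -0.446 to -0.55).

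The sites over the starts had the highest CPM of the RET sites. RET -16135, at chr10:43075489-43079210 and holding the upstream RefSeq start, read 30.31, 26.79 and 30.63 CPM in Control, 30.6, 26.23 and 28.18 CPM in shARID1A/B.2.3 and 36.43, 37.5 and 35.43 CPM in shARID1A/B.4.2. Of the combinations only shARID1A/B.4.2 lay above Control, as did shARID1A.4 and shARID1B.3 among the single groups. It had a log2 change of 0.32 (SE 0.09, FDR 0.00441), while the mean of both combinations did not pass the test (0.14, SE 0.08, FDR 0.23) and turned negative under promoter scaling (-0.1), abundance-trended offsets (-0.039) and offsets for GC content (-0.048). RET +501, at chr10:43093119-43094851 next to the start in the authors' annotation, read 23.38, 22.11 and 22.09 CPM in Control, 17.43, 16.56 and 18.24 CPM in shARID1A/B.2.3 and 22.22, 24.39 and 21.43 CPM in shARID1A/B.4.2. It fell with shARID1A/B.2.3 (log2 change -0.37, SE 0.09, FDR 0.000832) and with shARID1A.2, where 16.75, 16.69 and 16.75 CPM gave a log2 change of -0.43 (SE 0.09, FDR 0.000399), and overlapped Control in shARID1A/B.4.2 (0.01, FDR 0.965). The mean of the combinations did not pass (-0.18, SE 0.08, FDR 0.0933), but passed downwards under promoter scaling (-0.419) and with abundance-trended offsets (-0.278).

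**Figure D2:**
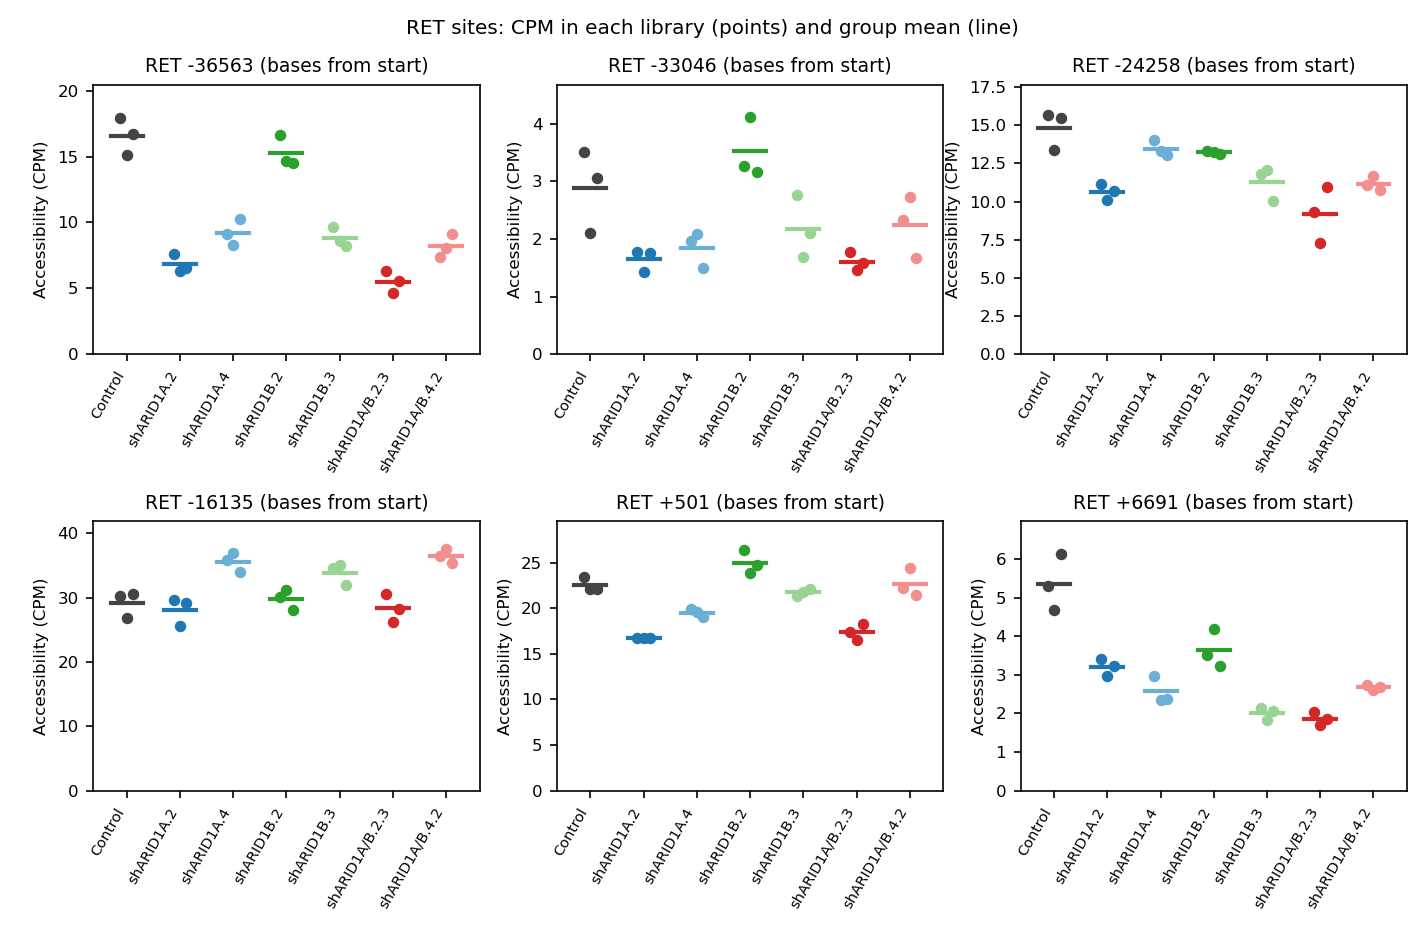
CPM (vertical axes, starting at 0) of 6 RET sites in each of the 3 libraries of the 7 groups, with a line at each group mean. RET -36563 and RET +6691 are lower than Control in both combinations, whereas RET -16135 is not, and at RET -36563 shARID1B.2 overlaps Control.

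The remaining 6 RET sites (-44464, -8993, +12110, +17444, +19368 and +21652) had combined log2 changes of -0.03 to 0.33 and none passed the test. RET +12110 alone of these passed in a combination, with a log2 change of 0.35 (SE 0.1, FDR 0.00704) in shARID1A/B.4.2.

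Among the co-receptors, GFRA1 lost accessibility far from its promoter. The clearest loss, GFRA1 +400230 at chr10:115871616-115873231, lay in intron 28 of 28 of ATRNL1, the gene beyond the GFRA1 end. It read 8.13, 8.47 and 6.05 CPM in Control, 3.05, 3.09 and 2.64 CPM in shARID1A/B.2.3 and 2.24, 2.48 and 2.37 CPM in shARID1A/B.4.2. The combinations stayed below every Control library, with a log2 change of -1.51 (SE 0.12, FDR 2.77e-19), and each of the 4 single groups passed the test with log2 changes of -0.5 to -1.23. Of the 18 closed GFRA1 sites 8 lay in ATRNL1, 6 between genes and 4 in introns of GFRA1, and their log2 changes ran from -0.41 to -1.51. The promoter site GFRA1 -293, at chr10:116271123-116274769, read 22.61, 23.34 and 22.73 CPM in Control, 21.47, 19.45 and 21.85 CPM in shARID1A/B.2.3 and 22.98, 22.23 and 22.72 CPM in shARID1A/B.4.2. The libraries of shARID1A/B.2.3 lay just below Control and those of shARID1A/B.4.2 overlapped it. The log2 change of -0.07 (SE 0.08, FDR 0.583) did not pass, but it passed downwards under promoter scaling (-0.315) and offsets for GC content (-0.244).

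GFRA2 had the site with the highest Control level per kb among the 223, and that site closed. GFRA2 -49433, intergenic at chr8:21837983-21839481 with a Control mean of 22.7 CPM per kb, read 35.61, 33.49 and 32.83 CPM in Control. It read 17.07, 15.03 and 18.29 CPM in shARID1A/B.2.3 and 16.4, 15.74 and 16.74 CPM in shARID1A/B.4.2, all below Control and below every single-hairpin library, of which the lowest was 21.09 CPM. The log2 change against Control was -1.04 (SE 0.08, FDR 3.19e-20), and against the mean of the single groups -0.62 (SE 0.06, FDR 1.7e-14). GFRA2 +122146, intergenic at chr8:21666198-21668109, read 11.07, 9.45 and 12.27 CPM in Control, 3.25, 3.23 and 4.4 CPM in shARID1A/B.2.3 and 3.81, 4.92 and 3.43 CPM in shARID1A/B.4.2. The combinations again lay clear of Control, with a log2 change of -1.52 (SE 0.11, FDR 3.24e-21). Of the 11 closed GFRA2 sites 4 lay in introns of the gene and 7 between genes. The site nearest the start, GFRA2 +942 in exon 1 of 8, overlapped Control and had a log2 change of -0.11 (SE 0.09, FDR 0.459), which passed downwards under promoter scaling (-0.352) and offsets for GC content (-0.314).

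GFRA3 was the co-receptor whose promoter site closed. GFRA3 -765, at chr5:138273960-138276698 over the RefSeq start, read 9.96, 8.92 and 11.02 CPM in Control, 6.73, 5.16 and 6.37 CPM in shARID1A/B.2.3 and 9.36, 9.07 and 9.92 CPM in shARID1A/B.4.2. Of the combinations only shARID1A/B.2.3 lay below Control, as did shARID1A.4 and shARID1B.3 among the single groups. Its log2 change was -0.73 (SE 0.12, FDR 4.76e-07), that of shARID1A/B.4.2 was -0.08 (SE 0.12, FDR 0.751) and that of their mean -0.4 (SE 0.1, FDR 0.00129). The call on the mean was lost without Control library 3 (-0.322) and without shARID1A/B.2.3 library 2 (-0.31). The other 3 GFRA3 sites, with Control means of 0.225 to 2.83 CPM, had log2 changes of 0.14 to 0.68 that did not pass. GFRA4, whose 5 tested sites ran from -0.76 to 0.28, had none called on the mean of the combinations. GFRA4 +2357, in exon 2 of 6, read 4.96, 3.82 and 5.49 CPM in Control and 6.81, 6.9 and 6.86 CPM in shARID1A/B.4.2, above Control, with a log2 change of 0.53 (SE 0.14, FDR 0.00233), while shARID1A/B.2.3 overlapped Control (0.02, FDR 0.928).

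Among the ligands, GDNF had both the deepest loss and 2 of the 3 gains. GDNF +114733, at chr5:37720343-37721174 in intron 13 of 17 of WDR70, read 13.86, 17.46 and 13.75 CPM in Control, 2.07, 2.04 and 2.15 CPM in shARID1A/B.2.3 and 2.87, 3.87 and 3.76 CPM in shARID1A/B.4.2. The log2 change was -2.48 (SE 0.11, FDR 4.65e-35), with no overlap between the combinations and Control. ARID1B silencing alone brought it to 6.25, 7.11 and 7.68 CPM with shARID1B.2 and to 1.87, 2.03 and 1.76 CPM with shARID1B.3. ARID1A silencing left 9.46, 7.88 and 9.97 CPM with shARID1A.2 and 6.5, 5.41 and 6.45 CPM with shARID1A.4, so that all 4 single groups lay below Control, and every shARID1B.3 library lay below every shARID1A/B.2.3 library. Of the 7 closed GDNF sites 6 lay in introns of WDR70 and 1 between genes.

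Near the GDNF starts the called sites were higher on the mean of the combinations, but by themselves they passed only in shARID1A/B.4.2. GDNF -2004 had a log2 change of 0.54 (FDR 8.47e-05) in shARID1A/B.4.2 and 0.27 (FDR 0.0655) in shARID1A/B.2.3. For GDNF -4632 the values were 0.47 (FDR 0.000189) and 0.17 (FDR 0.253). GDNF -2004, at chr5:37836516-37838475 in intron 1 of 2, read 9.14, 8.42 and 9.3 CPM in Control, 11.16, 10.45 and 10.9 CPM in shARID1A/B.2.3 and 13.17, 13.12 and 12.75 CPM in shARID1A/B.4.2. All 6 libraries were above Control, and the log2 change was 0.41 (SE 0.1, FDR 0.00067), which did not pass under promoter scaling (0.171). GDNF -4632, the promoter site at chr5:37839352-37840894, read 13.33, 12.08 and 11.87 CPM in Control, 12.87, 15.1 and 13.76 CPM in shARID1A/B.2.3 and 16.22, 17.03 and 18.46 CPM in shARID1A/B.4.2. A library of shARID1A/B.2.3 fell inside the Control range, and the log2 change of 0.32 (SE 0.09, FDR 0.00426) did not pass under promoter scaling (0.088), with offsets for GC content (0.09), or without Control library 2 or 3 or shARID1A/B.4.2 library 3 (0.287 to 0.331). GDNF +876, in the same intron as GDNF -2004, had a log2 change of 0.21 (SE 0.12, FDR 0.247), which turned to -0.029 under promoter scaling.

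NRTN and ARTN had few sites, and both had higher means after silencing. NRTN +4383, at chr19:5826607-5829773 over exon 2 of 2, read 23.63, 17.09 and 24.81 CPM in Control, 30.63, 25.37 and 29.72 CPM in shARID1A/B.2.3 and 26.7, 24.39 and 27.83 CPM in shARID1A/B.4.2. A library of shARID1A/B.4.2 overlapped Control, and the log2 change of 0.33 (SE 0.09, FDR 0.00584) did not pass with DESeq2, with 3 other scalings (0.095 to 0.189), or without Control library 2 (0.204) or shARID1A/B.4.2 library 3 (0.305). The RefSeq start of NRTN fell in a site that the authors' annotation gave to its neighbour DUS3L, with a log2 change of 0.32 (FDR 0.013). ARTN +59, the promoter site in the authors' annotation and the gene's only one, lay at chr1:43934372-43937065, and the RefSeq start at chr1:43933801 fell in no site. ARTN +59 read 3.22, 2.67 and 4.93 CPM in Control, 5.15, 3.32 and 4.75 CPM in shARID1A/B.2.3 and 4.97, 6.12 and 5.52 CPM in shARID1A/B.4.2. The first combination overlapped Control and did not pass the test (log2 change 0.25, FDR 0.293). The second did not overlap Control and passed (0.61, FDR 0.0036). The log2 change of their mean, 0.43 (SE 0.14, FDR 0.0216), did not pass. That mean passed with abundance-trended offsets (0.579) and without Control library 3 (0.735), shARID1A.2 library 2 (0.459) or shARID1A/B.2.3 library 2 (0.56).

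**Figure D3:**
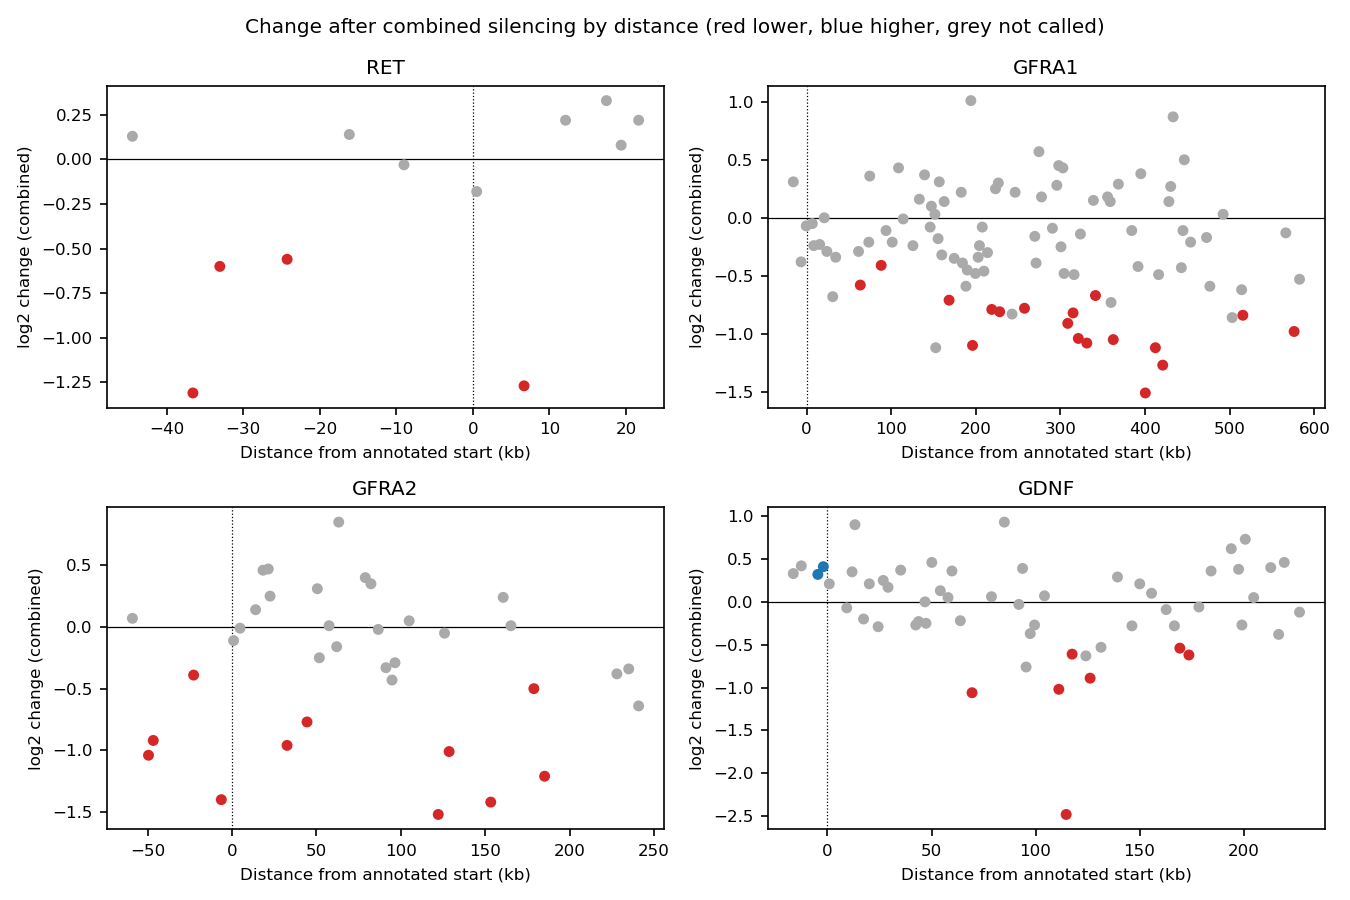
Log2 change (vertical axes, mean of both combinations against Control) of each tested site of RET, GFRA1, GFRA2 and GDNF by its distance in kb from the start in the authors' annotation, with red for lower, blue for higher and grey for not called at FDR under 0.01. The red points lie away from the dotted line at the start in all 4 panels, and the blue ones are GDNF -2004 and GDNF -4632.

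Closed sites of the 8 genes lay a median of 153248 bases from the start and those not called 125707 bases, beside 50395 bases for all closed sites of the genome and 50698 bases for all tested sites. Within 100000 bases lay 14 of the 41 closed sites and 79 of the 171 that were not called. Over the genome, 25483 of 36610 closed sites and 241329 of 357029 tested sites did. The closed sites of the 8 genes were longer than those not called (median 1173 against 683 bases). They were also more accessible (median 2.47 against 0.967 CPM over all groups) and lower in G and C (46.2% against 50.5%). All closed sites of the genome had medians of 1148 bases, 2.63 CPM and 44.1% in the same measures. More reads give the test more power, and the part of level in which sites were called was not tested.

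The 41 closed sites held CATCTG in 31.7%, CAGCTG in 26.8%, GATA in 19.5%, TEAD in 19.5%, AP-1 in 9.76%, homeobox in 9.76% and SP/KLF in 7.32% of their central 300 bases. Over all closed sites of the genome these shares were 33.0%, 20.2%, 24.7%, 17.9%, 14.3%, 14.1% and 5.54%, in the same order. A match describes letters and was not read as binding.

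Each combination was then set against Control by itself, and the 6 groups' comparisons share the same Control libraries. In shARID1A/B.2.3 34 of the 215 sites were lower (15.8%, beside 10.4% of all tested sites) and 3 higher (1.4%, beside 2.85%). In shARID1A/B.4.2 30 were lower (14.0%, beside 7.37%) and 6 higher (2.79%, beside 3.97%). RET gave 5 of the lower sites in shARID1A/B.2.3 and 3 in shARID1A/B.4.2, GDNF 10 and 3, GFRA1 9 and 16, GFRA2 9 and 8, and GFRA3 1 and 0. The higher sites in shARID1A/B.2.3 were NRTN +4383 (0.38), GDNF +85016 (1.22) and GDNF +13205 (1.03) on the log2 scale. Those in shARID1A/B.4.2 were 2 of RET, 2 of GDNF, 1 of GFRA4 and 1 of ARTN. GDNF +85016 and GDNF +13205, like the sites in the next paragraph that are outside the naming rule, were singled out after their values were seen.

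Silencing of ARID1A alone, as the mean of its hairpins, lowered 18 of the 215 sites (8.37%, beside 5.37% of all tested sites) and raised 2 (0.93%, beside 1.67%), GDNF -2004 (log2 change 0.37) and GFRA1 +430198 (0.76). ARID1B silencing lowered 12 (5.58%, beside 3.53%) and raised 1 (0.465%, beside 1.39%), GFRA1 +428045 (0.66). Under promoter scaling these counts were 44 lower and 0 higher for ARID1A (beside 9.72% and 0.287% of all tested sites) and 26 lower and 0 higher for ARID1B (beside 5.96% and 0.508%). By hairpin, 13 sites were lower and 0 higher with shARID1A.2 (beside 4.54% and 0.834% of all tested sites) and 21 lower and 2 higher with shARID1A.4 (beside 4.17% and 2.28%). With shARID1A.2, 5 sites were higher at an unadjusted p under 0.05 in edgeR. With shARID1B.2 10 were lower and 3 higher (beside 1.84% and 1.34%), and with shARID1B.3 19 were lower and 3 higher (beside 4.88% and 3.12%). The hairpins did not pick the same genes evenly: RET gave 5 of the lower sites with shARID1A.2 and 2 with shARID1A.4, whereas GFRA1 gave 2 and 12. GFRA2 +178773, intergenic, passed in opposite directions with the ARID1B hairpins, at a log2 change of 0.76 (SE 0.11, FDR 6.35e-08) with shARID1B.2 and -1.03 (FDR 3.27e-12) with shARID1B.3.

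**Figure D4:**
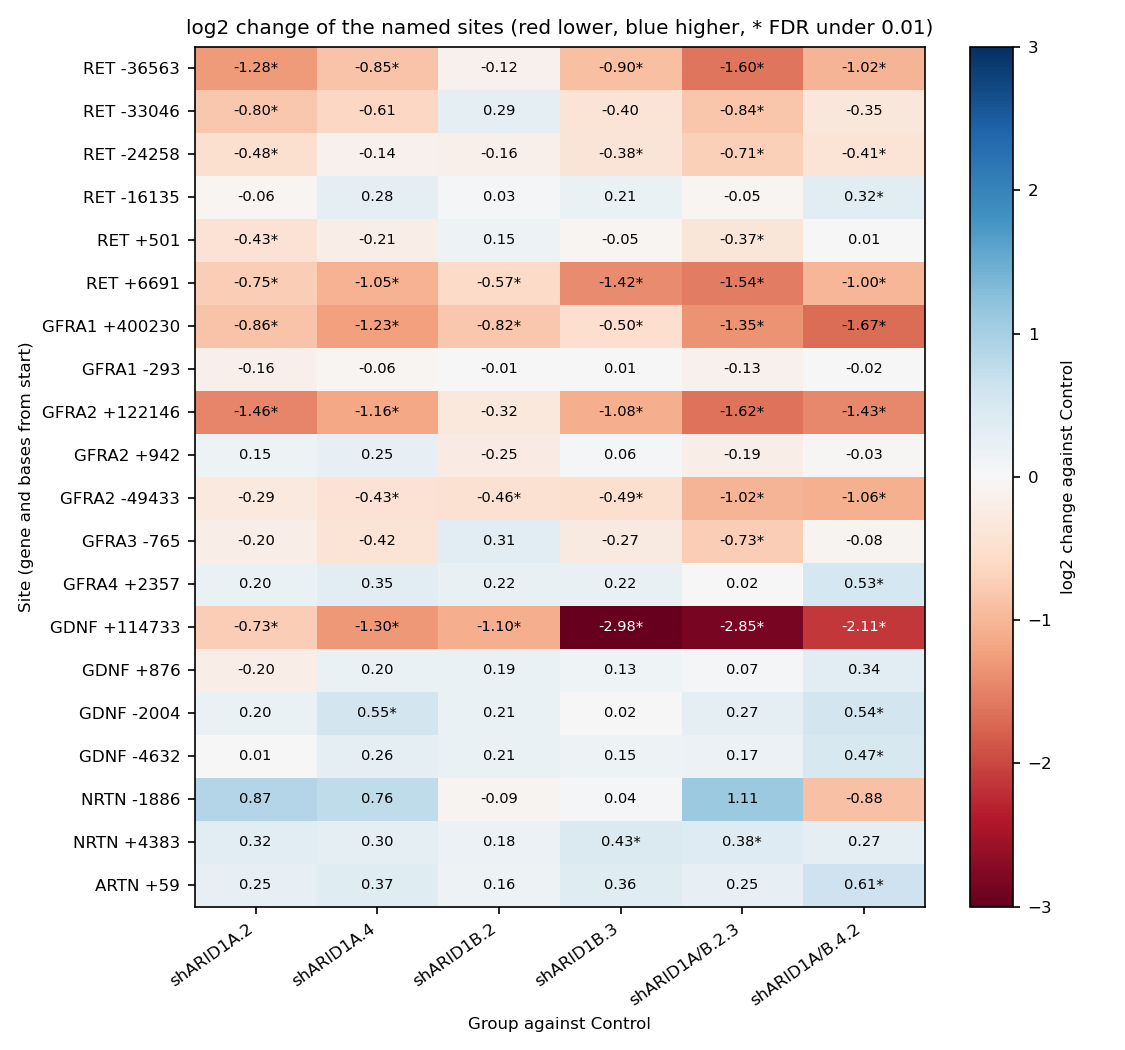
Log2 change against Control of 20 sites of the 8 genes (rows) in each of the 6 silenced groups (columns), red for lower and blue for higher, with a star at FDR under 0.01. RET +6691, GFRA1 +400230 and GDNF +114733 carry a star in every column, and RET -36563 in every column except that of shARID1B.2 (-0.12).

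Tests between silenced groups, which leave out the Control libraries, set the mean of the combinations against the mean of the 4 single groups, which does not compare them with the strongest hairpin. The combinations were lower than the mean of the single groups at 24 of the 215 sites (11.2%, beside 6.85% of all tested sites) and higher at 0, beside 0.969% of all tested sites. That count of 0 was from edgeR, DESeq2 also gave 0, and 12 sites were higher at an unadjusted p under 0.05. Of the 24, 9 were of GFRA1, 8 of GFRA2, 4 of GDNF, 2 of RET and 1 of GFRA3. At GDNF +114733 the log2 difference from that mean was -0.95 (SE 0.09, FDR 5.81e-14), at GFRA1 +400230 -0.66 (SE 0.1, FDR 8.38e-08), at RET -36563 -0.52 (SE 0.07, FDR 3.81e-08) and at RET -24258 -0.27 (SE 0.07, FDR 0.00288). At GDNF +114733 shARID1B.3 alone, at 1.76 to 2.03 CPM, lay below both combinations, and at RET -36563 the log2 change of shARID1A.2 alone (-1.28) was close to the combined one (-1.31). A departure of the combined change from both single changes added together was called at 1 site (beside 0.376% of all tested sites that departed downwards and 0.14% upwards), GFRA1 +428045, where it was lower by a log2 difference of -0.79 (SE 0.18, FDR 0.00863). No site departed upwards at that FDR in edgeR, and 16 did at an unadjusted p under 0.05.

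ARID1A silencing left 12 of the 215 sites lower than ARID1B silencing (beside 3.69% of all tested sites) and 2 higher (beside 1.05%). RET -36563, RET -33046 and RET +501 were among the lower ones, with log2 differences of -0.56 (SE 0.08), -0.65 (SE 0.14) and -0.37 (SE 0.06). The higher ones were GDNF +114733 (1.02, SE 0.1, FDR 3.25e-14) and GFRA2 +942 (0.3, SE 0.07, FDR 0.00313).

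Hairpins against the same gene also differed. Between shARID1A.2 and shARID1A.4, 3 sites were lower with the former (beside 1.84% of all tested sites) and 4 higher (beside 0.737%). The lower ones were RET -16135 (-0.34), RET +12110 (-0.39) and GDNF +117591 (-0.5), and the higher ones GFRA1 +321060 (1.38), GFRA1 +290488 (0.77), GFRA1 +199538 (0.99) and GDNF +114733 (0.57), as log2 differences. Between shARID1B.3 and shARID1B.2, 12 sites were lower with shARID1B.3 (beside 4.25%) and 6 higher (beside 2.96%). The lower ones included RET -36563 (-0.79, SE 0.11), RET -33046 (-0.69, SE 0.18) and RET +6691 (-0.85, SE 0.16), and 5 of the 6 higher ones were of GFRA1. Between shARID1A/B.2.3 and shARID1A/B.4.2, 13 were lower with the former (beside 3.79%) and 6 higher (beside 1.43%), with RET -36563, RET -16135, RET -8993 and RET +501 among the lower ones at log2 differences of -0.37 to -0.59 and 4 sites of GFRA1 among the higher ones. Whether the hairpins differed in the depth of silencing or in other targets was not tested.

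Reads summed over all sites of a gene gave 1 value per gene and library, scaled in a fit of its own over 26743 genes. RET summed to 137, 130 and 138 CPM in Control and 139, 132 and 133 CPM in shARID1B.2, which overlapped. The other groups followed at 124, 131 and 120 CPM in shARID1A/B.4.2, 117, 121 and 118 CPM in shARID1A.4, and 117, 117 and 117 CPM in shARID1B.3. The lowest were shARID1A.2 at 103, 104 and 106 CPM and shARID1A/B.2.3 at 104, 102 and 107 CPM. Control also overlapped shARID1A/B.4.2, which overlapped shARID1A.4, which overlapped shARID1B.3, and no library of the last pair reached any other group. The log2 change was -0.24 (SE 0.04, FDR 2.54e-05) on the mean of the combinations, and it was -0.143 and did not pass with abundance-trended offsets.

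On the mean of the combinations RET, GFRA1, GFRA2 and GDNF passed the test downwards as sums and no member upwards, beside 20.9% and 15.9% of all genes. The log2 changes were -0.37 (SE 0.05, FDR 6.43e-06) for GFRA1, -0.61 (SE 0.04, FDR 7.93e-11) for GFRA2 and -0.22 (SE 0.06, FDR 0.00203) for GDNF. For the others they were -0.26 (SE 0.08, FDR 0.01) for GFRA3, -0.01 (SE 0.1) for GFRA4, 0.28 (SE 0.09, FDR 0.0129) for NRTN and 0.37 (SE 0.16, FDR 0.0573) for ARTN, none of which passed. In shARID1A/B.2.3 RET, GFRA1, GFRA2, GFRA3 and GDNF were lower (beside 18.8% of genes) and NRTN higher (0.41, SE 0.1, FDR 0.00226, beside 11.9%). In shARID1A/B.4.2 GFRA1, GFRA2 and GDNF were lower (beside 19.5%) and none of the 8 higher (beside 15.9%), with RET at -0.11 (SE 0.05, FDR 0.0509).

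ARID1A silencing alone lowered the sums of the 4 genes that were lower in the combinations, RET, GFRA1, GFRA2 and GDNF (beside 14.4% of genes, and 7.28% that rose), with log2 changes of -0.28, -0.35, -0.33 and -0.21. ARID1B silencing lowered GFRA2 alone of the 8 (-0.33, SE 0.04, FDR 4.7e-06, beside 9.95% of genes, and 5.44% that rose). GFRA2 was also the member that was lower in the combinations than in the single groups (-0.28, SE 0.03, FDR 4.66e-07, beside 12.8%). RET and GFRA1 were lower with ARID1A than with ARID1B silencing (both -0.18, beside 7.03%).

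The sums split RET from GFRA1 between hairpins. RET was lower in shARID1A/B.2.3 than in shARID1A/B.4.2 (-0.26, SE 0.05, FDR 0.000244, beside 7.64% of genes), whereas GFRA1 was higher (0.32, SE 0.06, FDR 0.000751, beside 6.07%). GFRA1 was higher with shARID1A.2 than with shARID1A.4 (0.28, SE 0.06, FDR 0.00535, beside 2.47%), and RET was at -0.18 (SE 0.05, FDR 0.0108). RET, GFRA3 and GDNF were lower with shARID1B.3 than with shARID1B.2 (-0.2, -0.35 and -0.25, beside 7.33%).

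Per kb of site, the Control order of the 8 genes was NRTN at 6.26 ± 0.976 CPM per kb (SD, n = 3), RET at 5.95 ± 0.192, GFRA3 at 3.44 ± 0.243, GFRA2 at 3.27 ± 0.0952, GDNF at 2.26 ± 0.137, GFRA4 at 1.78 ± 0.33, GFRA1 at 1.74 ± 0.138 and ARTN at 1.38 ± 0.415. The Control libraries of NRTN and RET overlapped, as did those of GFRA3 and GFRA2 and those of GFRA4, GFRA1 and ARTN, while RET lay above GFRA3 and GDNF between GFRA2 and GFRA4 without overlap.

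**Figure D5:**
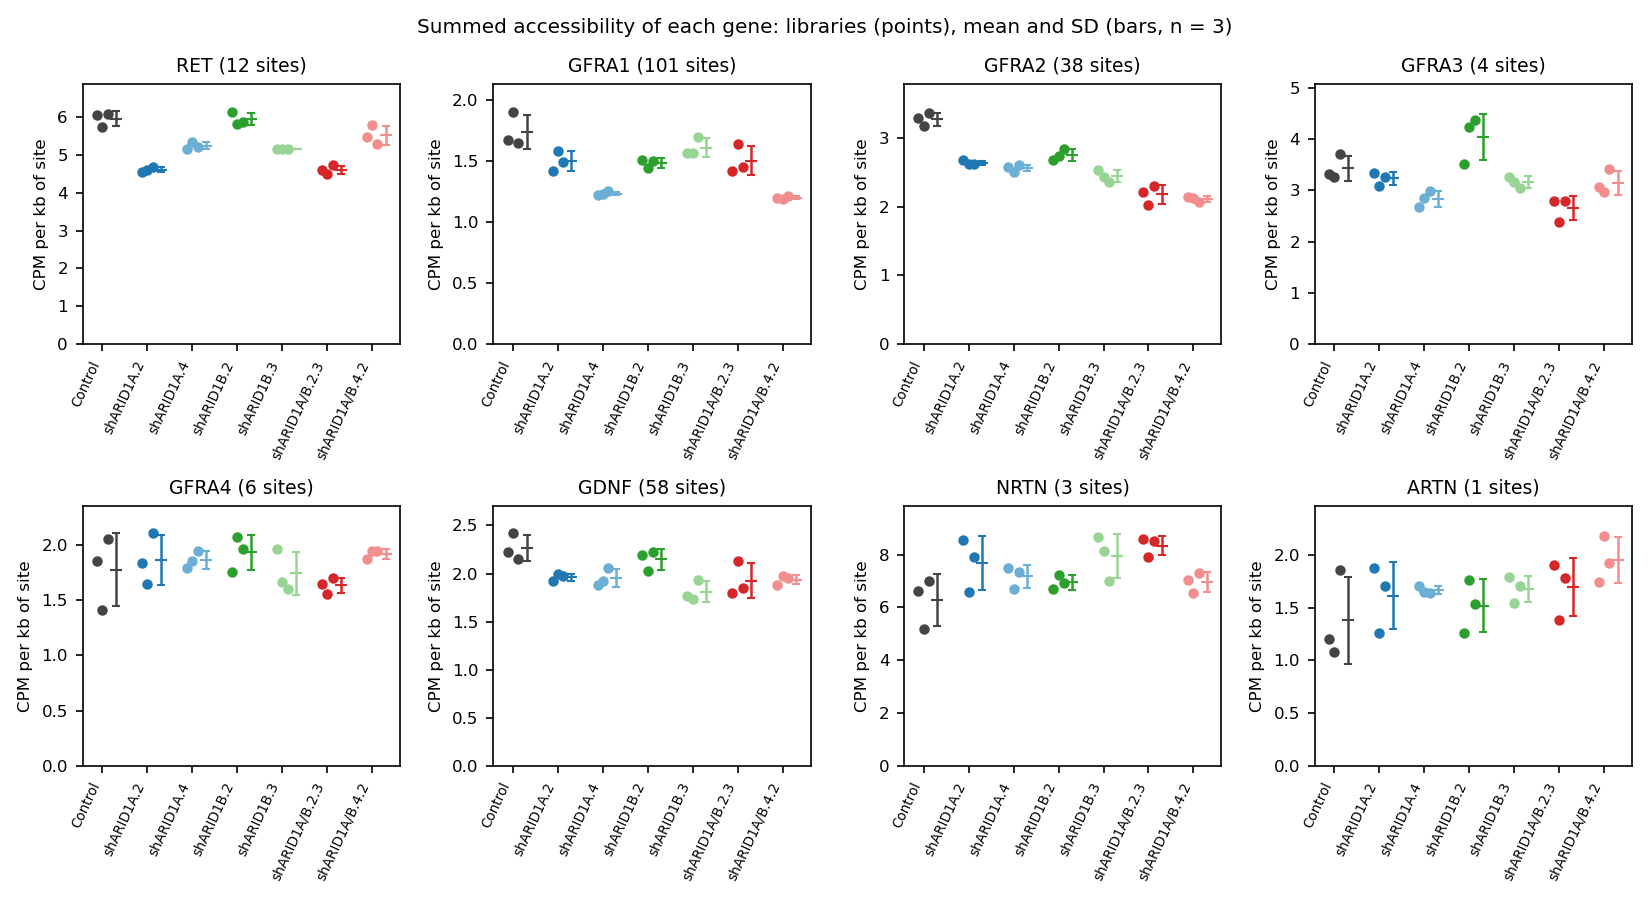
Summed accessibility in CPM per kb of site (vertical axes, starting at 0) of each of the 8 genes in the 7 groups, with a point per library and the mean and SD of 3 libraries beside them. RET falls from 5.95 in Control to 4.61 in both shARID1A.2 and shARID1A/B.2.3, whereas GFRA1 is lowest in shARID1A/B.4.2, at 1.2, and shARID1A.4, at 1.24.

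Over the 21 libraries, the 5 genes whose log2 sums correlated most with that of RET, among 14632 genes with at least 5 tested sites, were LOC102723308 (Pearson r 0.944), RNF144A (0.941), ADCY7 (0.939), SYT9 (0.937) and GOLGA6L10 (0.936). The members compared in the same way gave r of 0.517 for GDNF, 0.501 for GFRA2, 0.302 for GFRA4 and 0.048 for GFRA1. These libraries share groups and scaling, so the values describe likeness in this set alone.

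Other genes of the pathway were read from lists chosen with earlier results of these data known, on the mean of the combinations, beside the 10.3% of all tested sites that were lower and the 3.43% that were higher. Of the 70 tested sites of the other ligands and receptors 12 were lower (17.1%) and 1 higher (1.43%), and as sums 2 of 5 genes were lower, NCAM1, an adhesion molecule that can bind GDNF with GFRA1 (-0.41, SE 0.04), and GFRAL, the receptor of GDF15 (-0.33, SE 0.08). The shares of all genes with lower and higher sums were 20.9% and 15.9%, and the counts of sums in these lists are read beside them. Of the 281 sites of adaptors and effectors 38 were lower (13.5%) and 12 higher (4.27%). Among their 19 genes 4 sums were lower and 3 higher, shares close to those of all genes. The docking proteins GAB1 (-0.65, SE 0.05), DOK5 (-0.61, SE 0.07), DOK2 (-0.6, SE 0.07) and FRS2 (-0.2, SE 0.04) were lower, and the adaptor GRB2 (0.33, SE 0.08), the ubiquitin ligase CBL (0.25, SE 0.06) and SHANK3 (0.47, SE 0.11) higher.

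Genes induced by RET signalling had 21 of 177 sites lower (11.9%) and 10 higher (5.65%). Beside the same shares of all genes, 20.9% lower and 15.9% higher, 1 of their 7 sums was lower and 2 were higher. DUSP6, a phosphatase of the MAP kinase ERK, was lower (-0.17, SE 0.05), and EGR1 (0.29, SE 0.05) and VGF (0.54, SE 0.08) were higher.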

How the data were processed

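ATAC-seq libraries of SK-N-BE(2) cells, 21 in 7 groups of 3, were compared. The authors called consensus sites on merged replicates (GRCh38), annotated them with HOMER by nearest gene, and deposited raw read counts per site, which were used here. Their normalized counts and DESeq2 result columns (fold changes and p-values) were not used. The sources used here give neither the aligner nor the peak caller.

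Sites were named as members when the deposited annotation gave one of the 8 genes, and the members and the gene lists were chosen with earlier results of these data known. Counts were fitted with edgeR 4.0.16 (R 4.3.3), all 7 groups in 1 model, after filterByExpr (minimum count 10) and TMM scaling, with the quasi-likelihood test and Benjamini-Hochberg adjustment over 357029 sites, called at FDR under 0.01. CPM values use the TMM library sizes. SE is the log2 change divided by the square root of F. For a mean over hairpins or over combinations, SE and FDR leave out the spread between those hairpins or combinations. Counts summed over a gene's sites were fitted in the same way over 26743 genes. The steps were also run on simulated counts with few changed sites, as many raised as lowered, which does not test the scaling. The series' design text calls the libraries of a group biological triplicates, and the labels number them 1 to 3. Library sizes of 16140029 reads or more leave low sites imprecise, and the read counts carry no molecular identifiers. SE and FDR cover counting error and the spread among the libraries of a group.

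Named sites were, for each gene, the one nearest the start, the one with the highest mean CPM and the closed and opened ones with the smallest p, and for RET every called site (at most 12). Genes most like RET were the 5 with the highest r among those with at least 5 tested sites. Same-numbered libraries of different groups had deviations from their group means that correlated at a median of 0.005 (highest 0.305, over 0.1 in 4 of 63 pairs), so no pairing was used. Alternatives were DESeq2 1.42.0, other scalings (total counts, promoter sites, abundance-trended offsets and, added after the data were seen, offsets for GC content), no filter, only the compared groups, other thresholds, a distance limit of 100000 bases, a replicate block, and leaving out each library. The RefSeq start sites were likewise looked up after the data were seen. Sequences were read with pysam 0.24.0 from the GRCh38 genome and the RefSeq promoter table, which was matched by symbol. One gene list is not reported here.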

Additional observations from a re-analysis of the deposited data

Results flagged for a closer look

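Named sites at which silenced groups differed from each other at FDR under 0.01 are listed with the log2 difference, its SE and the FDR of edgeR's quasi-likelihood test.

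ARID1A silencing left RET -36563 lower than ARID1B silencing did by a log2 difference of -0.56 (SE 0.08, FDR 2.16e-07), RET -33046 by -0.65 (SE 0.14, FDR 0.000491) and RET +501 by -0.37 (SE 0.06, FDR 1.09e-05). The same comparison gave -0.39 (SE 0.1, FDR 0.00887) at GFRA1 +400230, -0.61 (SE 0.1, FDR 2.01e-06) at GFRA2 +122146 and -0.33 (SE 0.08, FDR 0.0038) at GFRA3 -765. It gave 0.3 (SE 0.07, FDR 0.00313) at GFRA2 +942 and 1.02 (SE 0.1, FDR 3.25e-14) at GDNF +114733, which were higher with ARID1A silencing.

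Between the ARID1B hairpins, shARID1B.3 was lower than shARID1B.2 at RET -36563 (-0.79, SE 0.11, FDR 2.76e-08), RET -33046 (-0.69, SE 0.18, FDR 0.00332) and RET +6691 (-0.85, SE 0.16, FDR 3.79e-05). It was also lower at GFRA2 +122146 (-0.76, SE 0.13, FDR 3.68e-06), GFRA3 -765 (-0.57, SE 0.11, FDR 6.77e-05) and GDNF +114733 (-1.88, SE 0.15, FDR 1.69e-18).

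Between the ARID1A hairpins, shARID1A.2 was lower than shARID1A.4 at RET -16135 (-0.34, SE 0.09, FDR 0.008) and higher at GDNF +114733 (0.57, SE 0.13, FDR 0.0014).

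Between the combinations, shARID1A/B.2.3 was lower than shARID1A/B.4.2 at RET -36563 (-0.58, SE 0.12, FDR 0.000352), RET -16135 (-0.37, SE 0.09, FDR 0.00167) and RET +501 (-0.38, SE 0.09, FDR 0.00156). The difference was -0.65 (SE 0.12, FDR 2.94e-05) at GFRA3 -765, -0.5 (SE 0.13, FDR 0.00519) at GFRA4 +2357 and -0.75 (SE 0.16, FDR 0.000539) at GDNF +114733. NRTN -1886, at 0.05 to 0.84 CPM in these libraries, was higher in shARID1A/B.2.3 by 1.99 (SE 0.51, FDR 0.00425).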

How the results depend on the processing

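Over the alternatives, 540 values of named sites kept direction and call, 20 lost and 11 gained the call and 8 changed sign. The 41 sites lower after combined silencing stayed between 30 and 60 under other models, scalings and filters, and were 18 at a log2 change of at least 1 and 14 within 100000 bases of the start. The 30, with DESeq2, were 14.0%, beside 8.5% of all sites. The 60, under promoter scaling, were 27.9%, beside 15.9%. The 14 were of 96 tested sites within that distance, beside 25483 of 241329 over the genome. At other thresholds, and within that distance for the further comparisons, the share of all sites was not counted. The 3 higher sites were 6 at FDR under 0.05, 0 at a log2 change of at least 1, 0 under promoter scaling (beside 0.692% of all sites), 1 with offsets for GC content (beside 3.34%) and 1 to 6 without 1 library. For ARID1A silencing the 18 lower sites were 35 at FDR under 0.05, 5 at a log2 change of at least 1, 9 within 100000 bases, 44 under promoter scaling and 11 to 20 without 1 library (11 without Control library 1 or 2). Without Control library 1 or 2, 3.98% and 4.42% of all sites were lower. The 2 sites higher after ARID1A silencing were 4, 0, 1 and 0 under the first 4 of those settings and 0 to 4 without 1 library. They were 1 with DESeq2 (beside 1.39% of all sites), 4 with no filter (beside 2.14%) and 1 with offsets for GC content (beside 1.42%). For ARID1B silencing the 12 lower sites were 23, 2, 5 and 26 in that order, and its 1 higher site was 4, 0, 0 and 0. That site became 2 with total counts (beside 1.66% of all sites), 2 with offsets for GC content (beside 1.72%) and 0 to 3 without 1 library. The 24 sites lower in the combinations than in the single groups were 0 at a log2 change of at least 1 and 8 within 100000 bases. The 0 higher ones were 2 with abundance-trended offsets, beside 1.62% of all sites. The 4 closed RET sites were 2 at a log2 change of at least 1, 3 with DESeq2, 6 under promoter scaling and 3 or 4 without 1 library, and the RET sum was -0.143 with abundance-trended offsets, without the call. Signs changed at RET -16135 (-0.1 under promoter scaling, -0.039 with abundance-trended offsets, -0.048 with offsets for GC content), GDNF +876 (-0.029 under promoter scaling) and NRTN -1886 (-0.105 under promoter scaling, and -0.043 to -0.05 without Control library 2, shARID1A/B.2.3 library 3 or shARID1A/B.4.2 library 1, within a range of -0.05 to 0.47 without 1 library). The cause of these shifts was not tested.

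With the replicate number as a block (replicate block) 42 sites were lower after combined silencing (19.5%, beside 10.5% of all sites). The RET sum changed by -0.239, and the 1 site higher after ARID1B silencing became 2 (beside 1.76% of all sites). No other call on these counts moved by over 1.5 times. The labels give same-numbered libraries only a number in common, but the deviations of library 2 of Control and library 2 of shARID1A/B.2.3 correlated at 0.305. Whether they shared more than a number was not tested.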

Other observations

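A few sites of GFRA1 and GFRA2, singled out after their values were seen, differed between hairpins against the same gene. GFRA2 +178773, intergenic at chr8:21609111-21611941, read 12.08, 11.42 and 13.83 CPM in Control, 20.32, 21.61 and 21.44 CPM with shARID1B.2 and 6.5, 6.06 and 5.59 CPM with shARID1B.3, so that the ARID1B hairpins lay on either side of Control. In the combinations it read 6.66, 4.74 and 6.29 CPM in shARID1A/B.2.3, all below Control, and 13.93, 12.89 and 13.12 CPM in shARID1A/B.4.2, which overlapped Control. The log2 difference between the combinations was -1.19 (SE 0.11, FDR 3.05e-14, edgeR).

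GFRA1 +199538, at chr10:116072800-116073430 in intron 9 of 10, went the other way. It read 3.46, 3.49 and 2.61 CPM in Control, 3.58, 4.11 and 3.65 CPM in shARID1A/B.2.3 and 1.25, 1.66 and 1.16 CPM in shARID1A/B.4.2, and the log2 difference between the combinations was 1.49 (SE 0.18, FDR 3.74e-10). Its single groups read 3.26, 3.09 and 3.1 CPM with shARID1A.2, 1.97, 1.34 and 1.38 CPM with shARID1A.4, 1.61, 2.43 and 1.75 CPM with shARID1B.2, and 3.68, 4.24 and 4.28 CPM with shARID1B.3. Libraries with hairpins shARID1A.4 or shARID1B.2, alone or together, were thus all below Control, and those with the other hairpins were not. GFRA2 +44426, at chr8:21743765-21745981 in intron 5 of 9, read 2.37, 1.89 and 2.09 CPM in shARID1A/B.4.2 and 4.99, 3.74 and 4.84 CPM in shARID1A/B.2.3, beside 5.82, 4.56 and 5.37 CPM in Control, with a log2 difference of 1.07 (SE 0.16, FDR 3.52e-07). How far each hairpin silenced its target was not analysed here.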
